A study of Homo sapiens with 9 samples.

Results

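The comparison of TMAO 24H with untreated controls covered 6 of the 9 libraries of the series and 14740 of the 29740 genes in the deposited table, chosen by their sample labels and by an expression filter. HMEC-1, an immortalised line of human dermal microvascular endothelial cells, was treated with 50 µM trimethylamine N-oxide (TMAO) for 24H in 3 libraries (TMAO 24H), and 3 libraries came from untreated HMEC-1 (controls). The methods place the treatment in medium with 2% foetal bovine serum, and all libraries come from this single line, so that they speak for 1 line and not for endothelium from different donors. The study pooled the controls of its time-points, and the labels give no time in culture for any control, so a TMAO effect at 24H and an effect of the time in culture cannot be told apart. The remaining 3 libraries (50 µM TMAO, 48H) entered the same fit and were used for a direct comparison of both treatment times. The labels do not say whether libraries of a group came from separate cultures, so the p-values measure the spread between these libraries, which may be technical.

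TMAO is formed in the liver by flavin monooxygenases from trimethylamine, which gut bacteria release from choline and carnitine. Many of the genes that differed at 24H are response genes of growth factor, serum and mechanical signalling. Immediate early genes such as FOS and EGR1 are transcribed without new protein synthesis when MAP kinases and serum response factor are active, the latter binding to CArG boxes in their promoters. DUSP1 and SPRY2 encode inhibitors that the same MAP kinase pathway induces against itself. CTGF and CYR61 encode secreted matricellular proteins and are standard targets of the co-activators YAP and TAZ, which reach DNA through TEAD factors.

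Total estimated counts ranged from 32179428 to 36927373 at 24H and from 29160868 to 30069548 in controls. The library TMAO 24H 1 stood apart, where ribosomal RNA took 31.5% of the counts, and this share was 1.64% to 7.46% in all others. Histone genes, whose transcripts mostly lack a poly(A) tail, summed to 569 CPM, scaled to the counts outside ribosomal RNA, in TMAO 24H 1, against 51.2 to 75.5 CPM in the other 8. Of 67 histone genes with a count, 61 were highest in this library. Other short RNAs without a poly(A) tail were chosen for naming after their values were seen. RN7SK, the 7SK RNA that restrains transcription elongation, had 25194 normalised counts in TMAO 24H 1, 325 and 279 in the other TMAO 24H libraries and 178, 187 and 660 in controls. RMRP, the RNA of an endoribonuclease, had 15337 normalised counts in TMAO 24H 1, 158 and 135 in the other TMAO 24H libraries and 60.4, 58.7 and 444 in controls. Control 3 therefore had the next highest level of both RNAs, and it also had the next highest ribosomal RNA share, 7.46%. Normalised counts are estimated counts divided by the TMM-scaled library size and multiplied by the mean of these sizes.

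**Figure D1:**
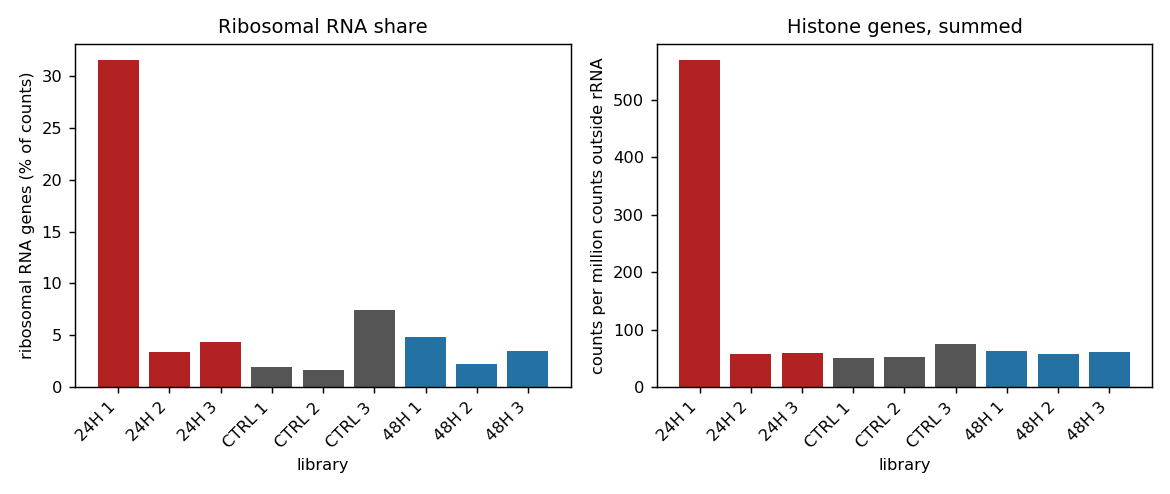
Share of counts on ribosomal RNA genes (left, % of all counts) and summed histone gene CPM outside ribosomal RNA (right) in each of the 9 libraries, with TMAO 24H in red, controls in grey and TMAO 48H in blue. TMAO 24H 1 stands at 31.5% and 569, and the other 8 libraries lie between 1.64% and 7.46% and between 51.2 and 75.5.

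All 16 endothelial markers on the list passed the expression filter. PECAM1, an endothelial junction protein, had 9928 to 10531 normalised counts at 24H and 9356 to 11093 in controls. The summed endothelial markers were 102311 to 108665 normalised counts at 24H and 102844 to 114120 in controls, so the groups overlapped. By gene, 4 of the 16 had a positive and 12 a negative log2 fold change (median -0.07), and 0 passed the adjusted test with edgeR. Of 9 leukocyte markers, 2 passed the filter (CD68 and CD14), and PTPRC, the defining leukocyte marker, was at 0 in 3 of the 6 libraries and at most 3.02 normalised counts in the others. The epithelial marker EPCAM had 240 to 272 normalised counts at 24H and 202 to 244 in controls, and KRT5 had 763 to 1099 against 881 to 1630, with overlapping groups for both. Of the 7 epithelial markers tested, 3 had all TMAO 24H libraries above all controls, namely CDH1 (124 to 134 against 84.6 to 106), KRT8 (1803 to 1934 against 1686 to 1790) and KRT19 (196 to 236 against 145 to 190), against 6.73% of all tested genes. None of the 7 passed the adjusted test (0 with edgeR, 1 higher at a nominal p under 0.05), and their median log2 fold change was 0.11. The summed epithelial markers were 22159 to 23544 at 24H and 23382 to 25593 in controls. Most of this sum was KRT18 (18446 to 19297 at 24H, 18505 to 21431 in controls). Of the 7 tested, 4 had a positive and 3 a negative log2 fold change. The fibroblast sum was 28782 to 31141 against 28472 to 33255, most of it COL1A1 (18891 to 20365 against 19009 to 21762) and COL1A2 (8250 to 9311 against 7882 to 9646). Of 10 fibroblast markers, 7 passed the filter, and DCN, LUM and DPT did not. PDGFRA passed with only 5.44 to 10.7 normalised counts at 24H and 8.06 to 12.7 in controls. The smooth muscle and pericyte sum was 4971 to 5270 at 24H and lay below 5306 to 5869 in controls. Its list holds NOTCH3, which had 1751 to 1841 against 1987 to 2315. In this list 3 of 7 tested markers had a positive and 4 a negative log2 fold change, and 0 passed the adjusted test with edgeR. The part of other cell types in the results was not tested. In bulk RNA, fewer cells of a type and less RNA per cell cannot be told apart.

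After 24H of TMAO, 7 genes passed as lower and 0 as higher, with an adjusted p under 0.05 and at least a 1.4-fold change (edgeR quasi-likelihood test, Benjamini-Hochberg adjustment over all tested genes). The share called lower was 0.0475% of the tested genes. Among them were FOS, EGR1, DUSP1, CTGF, CYR61 and SPRY2, and over the 7 genes control levels were 1.41 to 2.20 times those at 24H. A further 7 genes, RHOB, JUN, BDNF, HES1, GFRA1, EDN1 and MYC, passed the adjusted threshold with smaller differences, control levels being 1.24 to 1.34 times those at 24H. All 14 genes (0.095% of the tested genes) were lower at 24H, and in each of them the 3 TMAO 24H libraries lay below the 3 controls, as they did in 7.52% of all tested genes. MYC was just inside the threshold (adjusted p = 0.0493) and MEGF6 was just outside it (adjusted p = 0.0655).

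The response was narrow as well as one-sided at the top. The median log2 fold change of all tested genes was -0.00042, and 90% of the genes lay between -0.29 and 0.25. At a nominal (unadjusted) p under 0.05, 659 genes (4.47%) were lower and 408 (2.77%) higher. These shares are the background for the counts of list members at a nominal p under 0.05 given below. At a nominal p under 0.001 the split was 55 lower and 4 higher. With DESeq2, 0 genes were called higher and 3 of the 55 genes with an adjusted p under 0.05 were higher. The 659 lower genes had a median transcript GC content of 58.3%, against 44.7% for the 408 higher genes and 48.7% for all tested genes with a sequence. With GC content corrected per library, 15 genes passed the adjusted threshold, all lower, and these included the same 14 genes, while the split at a nominal p under 0.05 was 553 lower and 450 higher.

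Several of these calls were lost when 1 library was omitted. Such fits also have fewer libraries, and the part of the omitted library itself was not tested. Without TMAO 24H 2, which had the lowest TMAO 24H level of 11 of the 14 genes, 0 genes passed the adjusted threshold (263 higher and 427 lower at a nominal p under 0.05). Without control 2, 3 genes were called and 3 passed the adjusted threshold (CTGF, CYR61 and FOS). The adjusted count was 6 without control 1 and 8 without TMAO 24H 1, the library rich in ribosomal RNA, where the same 7 genes remained called.

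**Figure D2:**
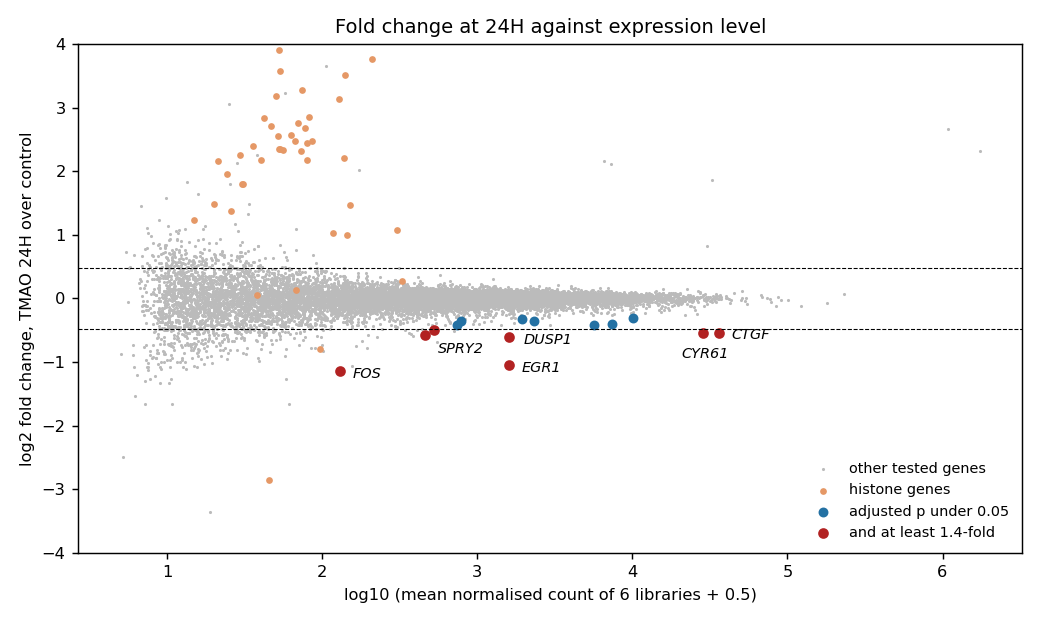
Log2 fold change of TMAO 24H over control (vertical axis) against the log10 mean normalised count of the 6 libraries (horizontal axis) for the tested genes, without 9 genes that lie beyond a log2 fold change of 4 in size. Dashed lines mark a 1.4-fold change, the 7 called genes (red) and the 7 others with an adjusted p under 0.05 (blue) all lie below 0, and the histone genes (orange) lie mostly above it.

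Among the immediate early genes, 4 of 24 tested members fell at 24H by the adjusted test (10 with DESeq2), and 0 rose. At a nominal p under 0.05, 16 members were lower and 1, BTG2, was higher, and the median log2 fold change of the list was -0.25, against -0.00042 for all genes. FOS encodes a subunit of the transcription factor AP-1. It had 76.2, 75.3 and 92.2 normalised counts at 24H and 168, 197 and 171 in controls, and the groups did not overlap. FOS was 2.20-fold lower at 24H (log2 fold change -1.14, with a standard error, SE, of 0.127, adjusted p = 0.00300). EGR1, a zinc finger transcription factor, had 1230, 877 and 1029 normalised counts at 24H and 2147, 2269 and 2053 in controls. Its highest TMAO 24H library, number 1, was well below the lowest control. EGR1 was 2.06-fold lower (log2 fold change -1.05, SE 0.139, adjusted p = 0.0106). JUN, the partner of FOS in AP-1, had 9277, 8748 and 9094 normalised counts at 24H and 11190, 11719 and 10678 in controls, a smaller but tight difference (log2 fold change -0.31, SE 0.0474, adjusted p = 0.0300). MYC, a regulator of growth and ribosome production, had 1794, 1639 and 1715 normalised counts at 24H and 2067, 2297 and 2110 in controls (log2 fold change -0.33, SE 0.0557, adjusted p = 0.0493), and it did not pass with RLE factors, the way DESeq2 scales libraries, or with the older quasi-likelihood fit of edgeR (adjusted p = 0.0546 and 0.0772).

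Further immediate early genes were named after their values were seen. FOSB, a relative of FOS, had 28.0, 27.2 and 22.4 normalised counts against 54.5, 48.8 and 50.4 in controls, and its log2 fold change of -0.99 did not pass the test (adjusted p = 0.305). KLF2, a transcription factor that endothelial cells raise under laminar flow, had 1331, 1489 and 1662 against 1907, 2030 and 1896 (log2 fold change -0.38, adjusted p = 0.0655). JUNB had 654, 639 and 676 against 772, 833 and 796 (log2 fold change -0.29, adjusted p = 0.105). The groups did not overlap for any of the 3 genes, with TMAO 24H lower, as in 7.52% of all tested genes. Of the 24 tested members, 3 had a positive log2 fold change. BTG2, an antiproliferative gene and p53 target, was the only 1 of them with a nominal p under 0.05. It had 1918, 2022 and 2004 normalised counts at 24H and 1794, 1810 and 1800 in controls (log2 fold change 0.14, adjusted p = 0.474).

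**Figure D3:**
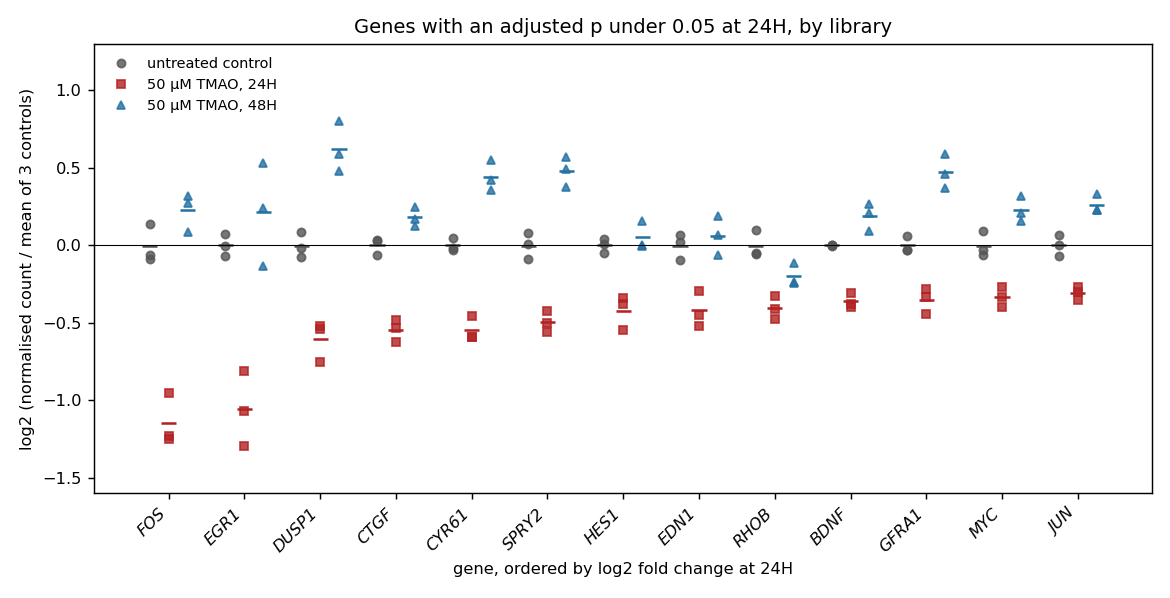
Log2 ratio of the normalised count to the mean of the 3 controls for 13 of the 14 genes with an adjusted p under 0.05 at 24H, 1 point for each library, with bars at the mean of each group. All TMAO 24H points (red squares) lie below 0 and below the controls (grey circles), and the TMAO 48H points (blue triangles) lie above the TMAO 24H points in every gene, with a mean below that of the controls only for RHOB.

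The promoters of EGR1 and CTGF are shown because they hold the motifs of the 2 factors named above, the CArG box of serum response factor and the TEAD motif. Both are RefSeq sequences of GRCh38.p14 covering the 250 bases before the gene start, written along the strand of the gene, with motif letters in capitals. The EGR1 window (chr5:138465229-138465478, plus strand) holds a CArG box from -105 to -96 and another from -83 to -74, counted back from the start. The CTGF window (chr6:131951373-131951622, minus strand) holds the TEAD motif GGAATG from -169 to -164, from -104 to -99 and from -95 to -90.
EGR1: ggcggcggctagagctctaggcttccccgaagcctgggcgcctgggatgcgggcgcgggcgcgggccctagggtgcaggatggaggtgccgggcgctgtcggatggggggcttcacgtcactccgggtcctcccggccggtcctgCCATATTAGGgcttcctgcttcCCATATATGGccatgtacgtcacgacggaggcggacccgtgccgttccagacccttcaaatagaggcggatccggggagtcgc
CTGF: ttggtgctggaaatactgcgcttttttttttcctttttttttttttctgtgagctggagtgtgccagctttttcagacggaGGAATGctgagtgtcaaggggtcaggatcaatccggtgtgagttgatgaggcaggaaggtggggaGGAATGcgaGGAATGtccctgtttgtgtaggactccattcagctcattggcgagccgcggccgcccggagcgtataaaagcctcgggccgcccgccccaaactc
Both strands were searched for 4 motifs in the 11 of the 14 genes that have a window. CYR61 and MYC were among those without one. The CArG box was found in 1 of the 11 (EGR1), against 1.14% of all 27305 windows and 0.991% of the 11205 windows of tested genes. GGAATG was found in 1 (CTGF), against 11.9% of all windows and 9.38% of those of tested genes. The AP-1 site TGANTCA and the sterol regulatory element TCACNCCAC were found in 0 of the 11, against 6.60% and 0.875% of all windows. Among windows of tested genes these shares were 3.90% and 0.830%. A match describes the letters of the window and does not show that a factor bound there in these cells.

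Among the targets of YAP and TAZ, 2 of 21 tested members, CTGF and CYR61, fell at 24H (5 with DESeq2), and 0 rose. At a nominal p under 0.05, 8 members were lower and 0 higher, while the list median was -0.04, close to that of all genes. CTGF, which encodes connective tissue growth factor, had 29473, 27681 and 30577 normalised counts at 24H and 43496, 43753 and 40998 in controls. The levels at 24H were tight and far from the control range (1.46-fold lower, log2 fold change -0.55, SE 0.0579, adjusted p = 0.00300). CYR61, its close paralogue, had 24501, 22349 and 22344 normalised counts at 24H and 32987, 34710 and 33219 in controls (1.46-fold lower, log2 fold change -0.54, SE 0.0612, adjusted p = 0.00300). Both genes had almost the same fold change. ANKRD1, a nuclear ankyrin repeat protein, had 7319, 7043 and 6736 against 8391, 8318 and 8175 (log2 fold change -0.24, adjusted p = 0.0655). TGFB2, a TGF-beta ligand, had 2456, 2423 and 2428 against 3029, 3029 and 2718 (log2 fold change -0.26, adjusted p = 0.120). Neither passed. Their groups did not overlap, with TMAO 24H lower, as in 7.52% of all tested genes.

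Of 14 actin cytoskeleton genes under serum response factor and its MRTF co-activators, 0 passed the adjusted test with edgeR or DESeq2. At a nominal p under 0.05, 4 were lower and 0 higher. These were the tropomyosins TPM1 (log2 fold change -0.10) and TPM2 (-0.22), the myosin light chain MYL9 (-0.12) and TAGLN (-0.13), with adjusted p-values of 0.646 to 0.679. ACTA2, the smooth muscle actin, had 142, 156 and 135 normalised counts against 123, 136 and 120, and the groups overlapped. RHOB, a small GTPase that regulates actin and is itself an early response gene, belonged to none of the lists. It fell from 8126, 8996 and 8058 normalised counts in controls to 6317, 6021 and 6697 at 24H (log2 fold change -0.40, SE 0.0552, adjusted p = 0.0115).

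Of 17 feedback inhibitors of MAP kinase signalling, 2 fell at 24H (DUSP1 and SPRY2), 0 rose, and 6 were lower at a nominal p under 0.05, with a list median of -0.14. DUSP1, a phosphatase that inactivates MAP kinases, had 1320, 1140 and 1340 normalised counts at 24H and 1899, 2039 and 1821 in controls. The groups were far apart, with TMAO 24H 2 lowest. DUSP1 was 1.52-fold lower (log2 fold change -0.60, SE 0.0804, adjusted p = 0.0106). SPRY2, a Sprouty protein that dampens receptor tyrosine kinase signalling, had 457, 416 and 433 normalised counts at 24H and 576, 616 and 648 in controls (1.41-fold lower, log2 fold change -0.49, SE 0.0708, adjusted p = 0.0165). It was the called gene nearest to the 1.4-fold limit. DUSP8 had 184, 206 and 217 against 262, 258 and 282 (log2 fold change -0.40, adjusted p = 0.211), and DUSP5 had 909, 936 and 1042 against 1191, 1208 and 1122 (log2 fold change -0.29, adjusted p = 0.424). Both are further dual specificity phosphatases, and neither passed the test. Neither had overlapping groups, with TMAO 24H lower, as in 7.52% of all tested genes.

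Of 34 sterol and fatty acid synthesis genes, 1 fell at 24H by the adjusted test (3 with DESeq2), and 0 rose. At a nominal p under 0.05, 12 were lower and 0 higher, 30 of the 34 had a negative log2 fold change, and the median was -0.08. SREBF1, which encodes a transcription factor of lipid synthesis, had 2495, 2523 and 2727 normalised counts at 24H and 3245, 3246 and 3043 in controls (log2 fold change -0.30, adjusted p = 0.0660). SCD, a fatty acid desaturase, had 10127, 8940 and 9159 against 11128, 11079 and 10409 (log2 fold change -0.21, adjusted p = 0.298). SREBF1 and SCD did not pass the test. In both the TMAO 24H libraries lay below the controls, as in 7.52% of all tested genes.

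Of 15 Notch pathway genes, HES1 fell (3 genes with DESeq2) and 0 rose, 4 were lower at a nominal p under 0.05, and 13 had a negative log2 fold change (median -0.09). HES1, a transcriptional repressor downstream of Notch, had 665, 575 and 646 normalised counts at 24H and 863, 845 and 814 in controls (log2 fold change -0.42, SE 0.0684, adjusted p = 0.0454). The Notch ligand JAG2 had 1589, 1434 and 1665 against 2017, 1953 and 1834 (log2 fold change -0.31, adjusted p = 0.120). The receptor NOTCH3 had 1751, 1807 and 1841 against 2315, 2286 and 1987 (log2 fold change -0.29, adjusted p = 0.144), and NOTCH1 had a log2 fold change of -0.17 (adjusted p = 0.520). Ligand and receptors did not pass the test. They had non-overlapping groups, with TMAO 24H lower, as did 7.52% of all tested genes.

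Of 14 vasoactive genes, EDN1 fell and 0 rose, with 3 lower and 1 higher at a nominal p under 0.05. EDN1 encodes the precursor of the vasoconstrictor endothelin-1. It had 5293, 4514 and 4754 normalised counts at 24H and 6585, 6790 and 6072 in controls (log2 fold change -0.42, SE 0.0693, adjusted p = 0.0454), TMAO 24H 1 being nearest to the controls. EDN1 did not pass with RLE factors or with the older quasi-likelihood fit (adjusted p = 0.0509 and 0.0593). ADM, which encodes the vasodilator adrenomedullin, had 568, 559 and 595 against 692, 667 and 643 (log2 fold change -0.22, adjusted p = 0.396). PTGIS, prostacyclin synthase, had 316, 315 and 336 against 300, 280 and 250 (log2 fold change 0.22, adjusted p = 0.674). NOS3, the endothelial nitric oxide synthase, was named after its values were seen and had 549, 521 and 537 against 546, 523 and 517, with overlapping groups. VWF, which encodes the von Willebrand factor of endothelial granules, had 2620, 2342 and 2630 against 3592, 3480 and 3063 (log2 fold change -0.42, SE 0.0769, adjusted p = 0.0820). It was the endothelial marker with the smallest p and did not pass.

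Of 23 angiogenic ligands and receptors, BDNF fell (2 genes with DESeq2) and 0 rose, with 4 lower and 0 higher at a nominal p under 0.05, while the list median was 0.04. BDNF, a neurotrophin that endothelial cells also make, had 711, 676 and 669 normalised counts at 24H and 879, 882 and 880 in controls. The controls were close together, and all TMAO 24H libraries lay below them. BDNF had a log2 fold change of -0.36 (SE 0.0575, adjusted p = 0.0390). The growth factors HBEGF (log2 fold change -0.27, adjusted p = 0.144), VEGFA (-0.23, adjusted p = 0.519) and PDGFB (-0.15, adjusted p = 0.595) did not pass. GFRA1, a receptor for the neurotrophic factor GDNF, belonged to no list and had 2137, 2062 and 1912 normalised counts against 2710, 2545 and 2543 (log2 fold change -0.35, SE 0.0580, adjusted p = 0.0454, or 0.0644 with the older quasi-likelihood fit).

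**Figure D4:**
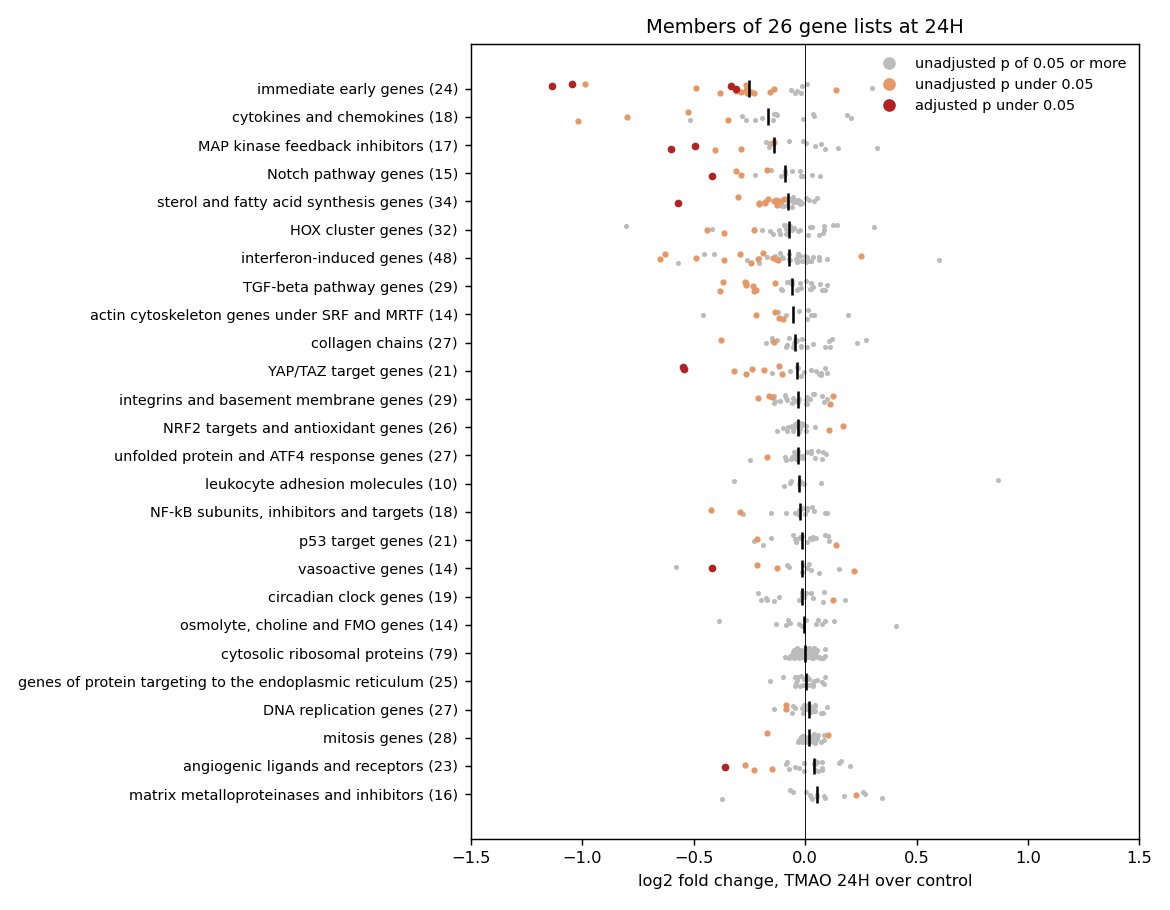
Log2 fold change of TMAO 24H over control for the tested members of 26 gene lists (number of members in brackets), with a black bar at the median of each list, ordered by that median. The immediate early genes have the lowest median (-0.25), and the points with an adjusted p under 0.05 (red) all lie below 0.

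Inflammatory genes did not pass the adjusted test at 24H. Of 18 cytokines and chemokines, 0 passed with edgeR or DESeq2, and 4 were lower and 0 higher at a nominal p under 0.05 (median -0.17). IL6 had 38.1, 39.9 and 48.3 normalised counts at 24H and 66.2, 70.7 and 83.6 in controls. The groups did not overlap, but counts were low and the log2 fold change of -0.80 had a SE of 0.206 (adjusted p = 0.336). CXCL2, a neutrophil chemokine, had 11.2, 15.4 and 10.7 against 26.3, 24.9 and 25.2 (log2 fold change -1.02, adjusted p = 0.474). IL15 (log2 fold change -0.52, adjusted p = 0.519) and the chemokine IL8 (-0.34, adjusted p = 0.546) were lower with non-overlapping groups, as were 7.52% of all tested genes. CCL2, the monocyte chemokine, had 198, 199 and 215 against 214, 255 and 230 (log2 fold change -0.19, SE 0.0951, adjusted p = 0.719). IL1B had 40.3, 33.6 and 34.0 against 40.9, 35.8 and 42.3 (log2 fold change -0.15, SE 0.199, adjusted p = 0.943).

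Of 10 leukocyte adhesion molecules, 0 passed with edgeR or DESeq2, and 0 had a nominal p under 0.05. ICAM1 had 652, 630 and 704 normalised counts at 24H and 689, 728 and 657 in controls, with overlapping groups (log2 fold change -0.06, SE 0.0660, adjusted p = 0.913). VCAM1 had 17.9, 29.9 and 34.0 against 35.0, 33.8 and 34.3 (log2 fold change -0.32, adjusted p = 0.866). Of 18 NF-kB subunits, inhibitors and targets, 0 passed with edgeR or DESeq2. At a nominal p under 0.05, 2 were lower and 0 higher, against 4.47% and 2.77% of all tested genes. The 2 were TRAF1 (log2 fold change -0.42) and NFKBIZ (-0.29). NFKBIA, the inhibitor that NF-kB induces, had 761, 752 and 805 against 782, 901 and 777.

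Of 48 interferon-induced genes, 0 passed with edgeR and 1 with DESeq2. At a nominal p under 0.05, 10 were lower and 1 higher, and the median was -0.07. ISG15, a ubiquitin-like modifier, had 581, 610 and 558 normalised counts at 24H and 737, 801 and 715 in controls (log2 fold change -0.37, adjusted p = 0.168). MX1, an antiviral GTPase, had 391, 329 and 379 against 596, 559 and 387, with overlapping groups (log2 fold change -0.49, adjusted p = 0.493). Control 3 was the lowest control for MX1 and lay within the range of TMAO 24H. IFITM3 (log2 fold change -0.12) and the RNA sensor IFIH1 (-0.29) had adjusted p-values of 0.543 and 0.546.

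Of 29 TGF-beta pathway genes, 0 passed with edgeR and 3 with DESeq2, and 9 were lower and 0 higher at a nominal p under 0.05 (median -0.06). ID3, a target of BMP signalling, had 5037, 4900 and 5263 normalised counts at 24H and 5707, 6570 and 5975 in controls (log2 fold change -0.26, adjusted p = 0.170). The inhibitory SMAD6 had 269, 276 and 324 against 369, 371 and 392 (log2 fold change -0.38, adjusted p = 0.241). LTBP4, which binds latent TGF-beta in the matrix, had a log2 fold change of -0.22 (adjusted p = 0.169). The ligand TGFB1 had 5829, 5821 and 6413 against 6354, 6951 and 6111, with overlapping groups (log2 fold change -0.10, SE 0.0547, adjusted p = 0.741). TGFBI, a secreted matrix protein induced by TGF-beta, had 28106, 27687 and 29263 against 28422, 27756 and 23362 (log2 fold change 0.10, SE 0.0686, adjusted p = 0.834).

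Matrix genes differed little. At a nominal p under 0.05 their counts stand against 4.47% lower and 2.77% higher among all tested genes. Of 16 matrix metalloproteinases and inhibitors, 0 passed with edgeR or DESeq2, 1 was higher at a nominal p under 0.05, and 13 had a positive log2 fold change (median 0.05). MMP1, the interstitial collagenase, had 726, 727 and 751 normalised counts at 24H and 632, 646 and 605 in controls (log2 fold change 0.23, adjusted p = 0.520). MMP2, a gelatinase, had 17224, 17160 and 18997 against 18315, 17830 and 15331, with overlapping groups (log2 fold change 0.05, SE 0.0647, adjusted p = 0.932). Of 27 collagen chains, 0 passed with either tool and 2, COL9A3 (log2 fold change -0.38) and COL4A2 (-0.14), were lower at a nominal p under 0.05. Of 29 integrins and basement membrane genes, 0 passed with edgeR and 1 with DESeq2, and 3 were lower and 2 higher at a nominal p under 0.05. AGRN, the basement membrane proteoglycan agrin, had 14007, 13880 and 14821 against 16915, 16594 and 15968 (log2 fold change -0.21, adjusted p = 0.120).

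In the remaining lists, among them stress, cell cycle and HOX genes, 0 members passed the adjusted test with edgeR. Their medians ran from -0.07 (HOX cluster genes) to 0.02 (mitosis genes), against -0.00042 for all genes. At a nominal p under 0.05, 4.47% of all tested genes were lower and 2.77% higher. Of 79 cytosolic ribosomal protein genes, 40 had a positive and 39 a negative log2 fold change, and 0 had a nominal p under 0.05. Of 27 DNA replication and 28 mitosis genes, 0 passed with either tool, and 2 and 1 were lower and 0 and 1 higher at a nominal p under 0.05. Of 26 NRF2 targets and antioxidant genes, 0 passed with either tool, and 21 had a negative log2 fold change (median -0.03). The 2 with a nominal p under 0.05 were higher, the superoxide dismutase SOD2 (log2 fold change 0.17) and the catalase CAT (0.11). Of 27 unfolded protein and ATF4 response genes, 0 passed with either tool and 1 was lower at a nominal p under 0.05, CRELD2 (log2 fold change -0.17). The 25 genes that target proteins to the endoplasmic reticulum had 0 members with a nominal p under 0.05 and a median of 0.0037. Circadian clock genes (19 tested) and p53 targets (21 tested) had 0 members past the adjusted test with either tool, and at a nominal p under 0.05 the clock gene ARNTL2 was higher (log2 fold change 0.13) while of the p53 targets GDF15 was lower (-0.22) and BTG2, described above, higher (0.14). Of 14 genes of osmolytes, choline and flavin monooxygenases, 0 had a nominal p under 0.05. Of 32 HOX cluster genes, 0 passed with either tool, 3 were lower at a nominal p under 0.05, and 22 had a negative log2 fold change (median -0.07). HOXD9 had 1036, 1059 and 1151 normalised counts against 1245, 1257 and 1301 (log2 fold change -0.23, adjusted p = 0.194). GAPDH, a glycolytic enzyme and common reference gene, had 68441, 69427 and 68476 against 67194, 70302 and 66157 (log2 fold change 0.02, SE 0.0574, adjusted p = 0.978).

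With edgeR, 0 genes rose by the adjusted test. By size, among genes with a nominal p under 0.01, a mean of at least 50 normalised counts and groups that did not overlap, the highest fold changes were those of HIST1H2AI, DTWD2, BSN, OTUB2 and MARVELD2. HIST1H2AI, a replication-dependent histone gene, had 372, 17.2 and 14.3 normalised counts at 24H and 13.6, 13.9 and 13.1 in controls. Its log2 fold change of 3.28 (adjusted p = 0.493) rested on TMAO 24H 1 and was 0.22 without that library. Of 45 histone genes tested, 34 were higher at a nominal p under 0.05, and without TMAO 24H 1, 1 was higher and 2 were lower. The median log2 fold change of histone genes was 2.35 with that library and -0.02 without it.

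DTWD2, which encodes a tRNA-modifying enzyme, had 85.1, 81.6 and 85.0 normalised counts at 24H and 49.6, 51.8 and 47.4 in controls. All TMAO 24H libraries were above all controls, and the log2 fold change was 0.76 (SE 0.144, adjusted p = 0.0959). Fits that each omitted 1 library gave 0.73 to 0.79, with edgeR adjusted p-values of 0.184 to 0.443. BSN, a presynaptic scaffold protein, had 70.6, 80.7 and 60.0 against 38.9, 46.8 and 41.3 (log2 fold change 0.73, adjusted p = 0.305). The deubiquitinase OTUB2 had 68.3, 73.5 and 71.6 against 46.7, 39.8 and 49.4 (log2 fold change 0.65, adjusted p = 0.305). MARVELD2, the tricellular junction protein tricellulin, had 113, 107 and 102 against 73.0, 73.7 and 72.5 (log2 fold change 0.55, adjusted p = 0.336). In these 4 genes the fold changes were in the range of the called genes, at lower counts, and did not pass the test. Groups that do not overlap were part of the rule that chose them.

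By the same rule, the deepest falls were those of FOS, EGR1, IL6, CHCHD10 and EBF4, of which FOS and EGR1 passed the test. CHCHD10, a mitochondrial protein of the intermembrane space, had 110, 124 and 195 normalised counts at 24H and 224, 262 and 255 in controls (log2 fold change -0.78, adjusted p = 0.465). EBF4, a transcription factor of the early B cell factor family, had 67.2, 74.4 and 81.5 against 115, 123 and 135 (log2 fold change -0.74, adjusted p = 0.113). Their libraries did not overlap with the controls, and EBF4 was among the genes called with DESeq2.

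**Figure D5:**
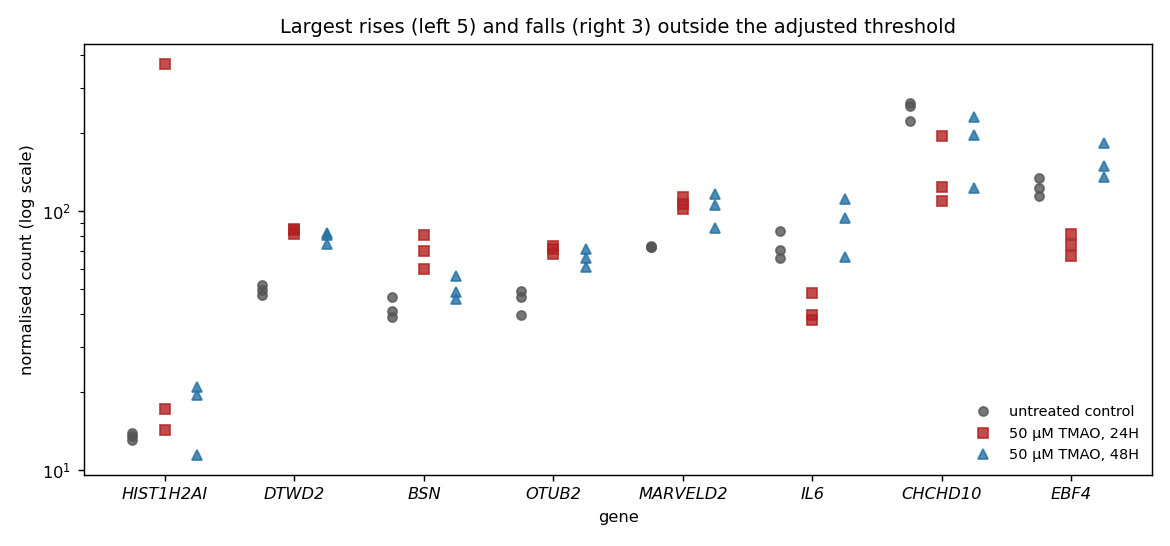
Normalised counts (log scale) in each library for the genes with the highest and lowest fold changes that did not pass the adjusted test at 24H, with controls as grey circles, TMAO 24H as red squares and TMAO 48H as blue triangles. HIST1H2AI is high in 1 TMAO 24H library only, and DTWD2 has all its TMAO 24H points between 81.6 and 85.1, above controls at 47.4 to 51.8.

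The direct comparison of both treatment times asked whether the falls were still present at 48H. All 14 genes were higher at 48H than at 24H with an adjusted p under 0.05, against 3.77% of all tested genes. This count shares the TMAO 24H libraries with the choice of the 14 genes and is a description. FOS had 190, 217 and 223 normalised counts at 48H, and CTGF had 46625, 48082 and 50805, so both lay above their 24H libraries. At 48H, 13 of the 14 were above the controls on average, 6 of them with an adjusted p under 0.05. RHOB remained below them (log2 fold change -0.20 from controls, adjusted p = 0.0379). SREBF1 and JAG2, which did not pass at 24H, had log2 fold changes of -0.31 and -0.29 from the controls at 48H. DTWD2 was also still above the controls on average at 48H, with a log2 fold change of 0.68.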

How the data were processed

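RNA from HMEC-1 was sequenced in 9 libraries. Reads were taken through the nf-core RNAseq workflow (version 3.6) by the authors, who deposited the resulting estimated counts for each gene symbol without normalisation. The submitters' processing notes name Trim Galore, and the quantifier, genome build and annotation are not given in the sources used here. These values were rounded to integers. The package edgeR 4.0.16 in R 4.3.3 kept 14740 genes (filterByExpr), scaled libraries by TMM and fitted all 9 libraries by quasi-likelihood (glmQLFit with legacy = FALSE), where the study used DESeq2. Adjustment was by Benjamini-Hochberg over all tested genes, and SEs were derived from the F statistic. An exact permutation test of 3 against 3 libraries cannot go below p = 0.1 for a single gene.

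Groups followed the sample labels. The comparison, the 26 gene lists and 5 marker lists were chosen with earlier results of these data known. Named genes are those with an adjusted p under 0.05, the 5 highest and 5 lowest fold changes (nominal p under 0.01, a mean of at least 50 normalised counts, groups that do not overlap), up to 4 members of each list with the smallest p, and the genes of the study's RT-qPCR. Others are marked as named after their values were seen, and a few genes are counted but not reported here by name. Symbols are those of the table (CTGF is now CCN2, CYR61 is CCN1). The fit was tested on simulated data. Alternatives were DESeq2 1.42.0, other scaling, filters and fits, a replicate block, removal of ribosomal RNA genes, a GC correction and the omission of each library. Transcript GC content came from GENCODE release 29 for 13241 (89.8%) of the tested genes. Libraries of a group differed by more than sampling noise (chi-square per degree of freedom from 3.24 to 11.7).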

Additional observations from a re-analysis of the deposited data

Results flagged for a closer look

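Of 28 genes (from those past the adjusted test at 24H, those with the highest and lowest fold changes and the RT-qPCR genes), 20 differed between 48H and 24H by the direct test (edgeR quasi-likelihood test, adjusted p under 0.05 over all tested genes), 17 of them higher and 3 lower at 48H. Among all tested genes, 3.77% were higher and 3.77% lower at 48H by this test. Many of the 28 genes were chosen by their TMAO 24H levels, and the direct test uses the same libraries, so these counts are a description. Both differences from control share the same 3 controls, so the values at 24H and 48H are given side by side.

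The 3 genes that were lower at 48H had no difference past the test at 24H. MMP2 had a log2 fold change of 0.05 from controls at 24H and -1.13 at 48H (48H minus 24H -1.18, adjusted p = 1.69e-06). TGFBI had 0.10 at 24H and -1.06 at 48H (48H minus 24H -1.15, adjusted p = 1.76e-06). TGFB1 had -0.10 at 24H and -0.34 at 48H (48H minus 24H -0.23, adjusted p = 0.0195).

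The inflammatory genes ICAM1, CCL2 and IL6, all on the RT-qPCR list, were higher at 48H than at 24H. ICAM1 had a log2 fold change of -0.06 at 24H and 0.78 at 48H (48H minus 24H 0.85, adjusted p = 6.52e-06). CCL2 had -0.19 at 24H and 0.72 at 48H (48H minus 24H 0.91, adjusted p = 5.97e-05). IL6 had -0.80 at 24H and 0.30 at 48H (48H minus 24H 1.10, adjusted p = 0.00494), and neither of its differences from control passed the test.

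Among the genes that were lower at 24H, 6 were above the controls at 48H with an adjusted p under 0.05. The same share over all tested genes was not counted. DUSP1 had a log2 difference between 48H and 24H of 1.23, CYR61 of 0.99, SPRY2 of 0.98, GFRA1 of 0.83, JUN of 0.57 and MYC of 0.56. For FOS the difference between 48H and 24H was 1.37, for EGR1 1.28, for CTGF 0.73, for BDNF 0.55, for EDN1 0.48 and for HES1 0.47, and their levels at 48H did not differ from the controls past the test. EBF4, which did not pass at 24H, had a difference of 1.07 (adjusted p = 0.000472). RHOB had a difference of 0.21 (adjusted p = 0.0385) and remained below the controls. Which part of these differences belongs to TMAO and which to the time in culture cannot be told apart.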

How the results depend on the processing

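The number of genes called at 24H (7) was 11 with DESeq2, 14 with no fold threshold and 0 in a test against a 1.4-fold change (glmTreat, where 25 genes were lower and 62 higher at a nominal p under 0.05). How many of the 62 rest on TMAO 24H 1 was not tested. In the main test 34 of 45 histone genes were higher at a nominal p under 0.05, and 1 was without that library. It stayed at 7 or 8 under the GC correction, with RLE factors, without ribosomal RNA genes, with the older quasi-likelihood fit, in a fit of only the 6 libraries and under both other expression filters (none, or a minimum of 10 counts throughout). The 14 genes with an adjusted p under 0.05 became 55 with DESeq2 and 22 with only the 6 libraries, and all 14 were among both. They became 12 with RLE factors (without EDN1 and MYC) and 11 with the older quasi-likelihood fit (also without GFRA1). With 1 library omitted, the called genes numbered 0 to 9, those with an adjusted p under 0.05 numbered 0 to 12 and those with an unadjusted p under 0.05 numbered 690 to 1137, the lowest of each without TMAO 24H 2. With the replicate number as a block (replicate block), 1 gene passed, FOS (adjusted p = 0.0461), and the other 6 called genes had adjusted p-values of 0.0531 to 0.0686. Same-numbered TMAO 24H and control libraries deviated from their group means with correlations of -0.0855 to 0.101, and libraries with different numbers with -0.109 to 0.150, so the numbers were not taken as pairs. The cause of these shifts was not tested.

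Most list medians moved by less than the spread between replicates. The NF-kB median (-0.02) was 0.011 with the GC correction, and the median of the osmolyte, choline and flavin monooxygenase genes (-0.0032) was -0.030 with no expression filter. With 1 library omitted, the medians ranged from -0.142 to -0.042 for the MAP kinase feedback inhibitors, from -0.081 to -0.0011 for vasoactive genes, from -0.175 to -0.122 for cytokines and chemokines, from -0.035 to 0.028 for clock genes, from -0.133 to -0.071 for Notch genes, from -0.024 to 0.056 for angiogenic genes and from -0.030 to 0.025 for the osmolyte genes. All 14 genes remained higher at 48H than at 24H in a fit of those 6 libraries alone, which reuses the TMAO 24H libraries that chose them. Of the genes past the adjusted test at 24H, 0 of 14 changed direction under these alternatives. The groups did not overlap in any of the 14, so these fits could hardly reverse a direction. Both counts are descriptions. Counts limited low genes most, with SEs of the log2 fold change of 0.206 for IL6 and 0.298 for CXCL2 against 0.0579 for CTGF.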

Other observations

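Genes that DESeq2 called at 24H in addition to the 7 of edgeR were looked at after their values were seen. FOXC2, a forkhead transcription factor of vascular and lymphatic development, had 285, 331 and 403 normalised counts at 24H and 503, 513 and 430 in controls (log2 fold change -0.50, standard error 0.112, edgeR adjusted p = 0.180). IDUA, a lysosomal enzyme that degrades glycosaminoglycans, had 161, 169 and 206 against 263, 279 and 277 (log2 fold change -0.61, standard error 0.120, edgeR adjusted p = 0.113). In both genes all TMAO 24H libraries lay below all controls, as in 7.52% of all tested genes. TMAO 24H 1, the library rich in ribosomal RNA, was the lowest in both. SOX18, an endothelial transcription factor, was called only when TMAO 24H 3 was omitted and had 428, 542 and 785 normalised counts against 816, 909 and 778, so that TMAO 24H 3 lay within the control range. The 3 genes that DESeq2 found higher at 24H at an adjusted p under 0.05 were C15orf38, LINC00657 and LOC730101. LINC00657, a long non-coding RNA also known as NORAD, had 16719, 16488 and 16173 normalised counts at 24H and 15268, 14804 and 14623 in controls (log2 fold change 0.14, standard error 0.0422, edgeR adjusted p = 0.474).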
